A study of Mus musculus with 3 samples.

Results

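The nuclear genes for subunits of complexes II, III and IV (CII, CIII, CIV) of the electron transport chain, for cytochrome c and for ATP synthase (AS) were followed in BCR::ABL1+ cell lines with kinase inactive CDK6. Members were the protein-coding genes on nuclear chromosomes named Sdha to Sdhd, Cyc1 or Cycs, or with a symbol that begins with Uqcr, with Cox4 to Cox8 or with Atp5. Of the 50686 genes of the count table, 50 were members: 4 in CII, 9 in CIII, 1 for cytochrome c, 18 in CIV and 18 in AS. Usmg5 entered through its newer name as an ATP synthase gene. Another 7 genes with matching symbols are processed pseudogenes and were left out, with at most 5 counts each over all lines.

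CII oxidises succinate and hands the electrons to ubiquinone, CIII passes them from ubiquinol to cytochrome c, and CIV passes them from cytochrome c to oxygen. CIII and CIV pump protons across the inner mitochondrial membrane, and AS uses the return of those protons to make ATP. Except for CII, each of these complexes combines subunits from nuclear genes with subunits encoded in mitochondrial DNA, and several CIV subunits exist as paralogs, some of them restricted to heart, skeletal muscle or testis.

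The samples were 3 stable cell lines of 1 genotype, Cdk6KM/KM, in which both alleles of Cdk6 carry the K43M change. All 3 came from C57BL/6 bone marrow cells that a retrovirus with BCR-ABLp185 and GFP had transformed, and grew in RPMI with serum. The record calls them pre- and pro-B cells. Each line is a population selected for outgrowth, so the animal and the outgrowth of its cells cannot be told apart. Poly(A) RNA was sequenced to between 19633463 and 25773221 counts per line. Cdk6+/+ and Cdk6-/- lines were not analysed here, so the comparisons are between lines of the same genotype and show how far each subunit varies without any change of genotype. Cdk6 itself was read in all lines, at 239 to 449.5 CPM (counts after TMM normalization, scaled to 1000000 per library), a value that does not show the mutated base. All 11 B-lineage markers had at least 1 CPM in every line, with a sum of 4064 to 4502 CPM, whereas the sums were 0 to 0.0785 CPM for 3 T cell genes, 1.75 to 3.81 CPM for 4 myeloid genes, 2.17 to 6.32 CPM for 3 erythroid genes and 0 for 2 stromal genes.

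A level of 1 CPM or more in every line was reached by 42 of the 50 members: all 4 of CII, all 9 of CIII, Cycs, 11 of 18 in CIV and 17 of 18 in AS. The members together took 1.04% ± 0.0173 of all counts (SD, n = 3). Their summed level was 10519, 10297 and 10367 CPM in lines 1, 2 and 3, a coefficient of variation of 1.09%.

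**Figure D1:**
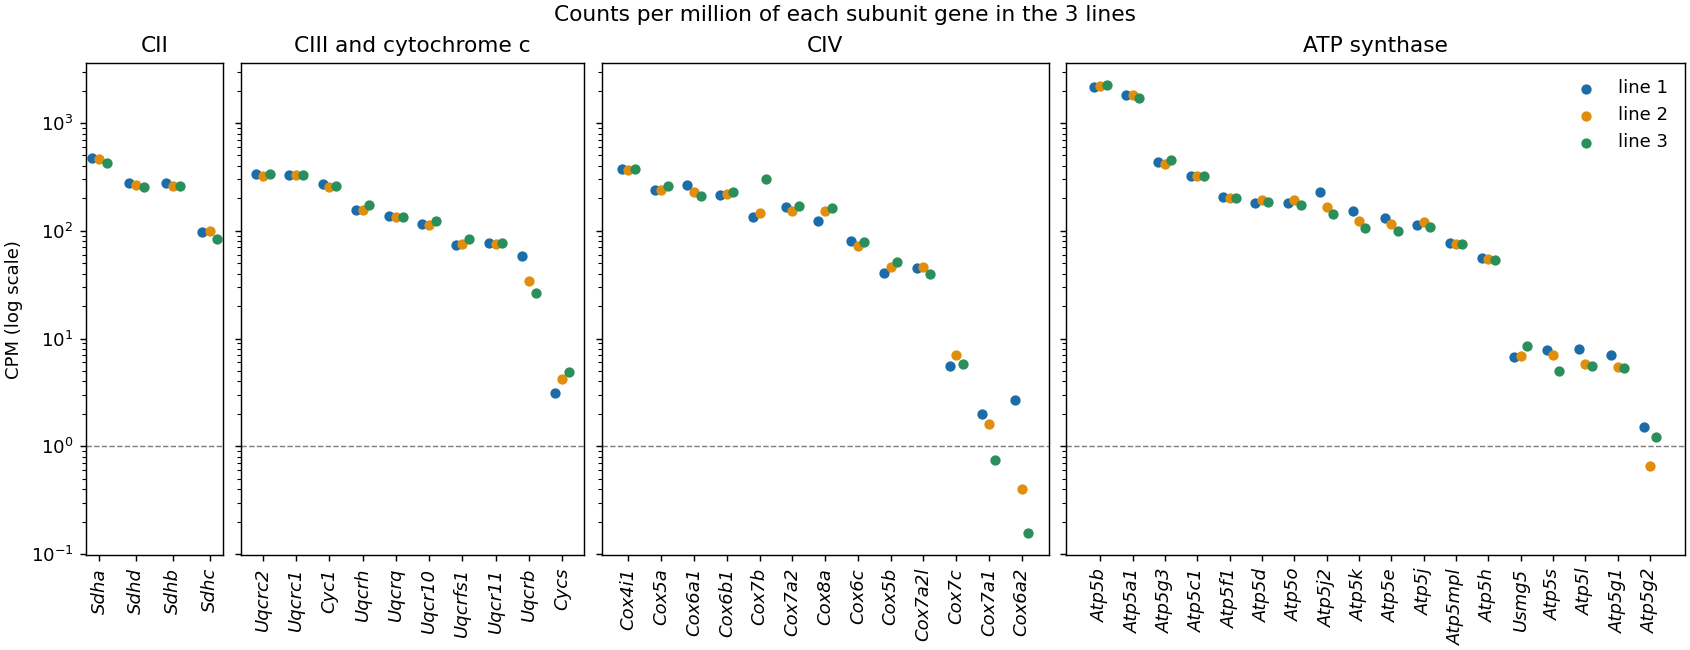
CPM (log scale) of 45 subunit genes (those with 10 counts or more), ordered by mean within CII, CIII with cytochrome c, CIV and AS. Each point is 1 line and the dashed line marks 1 CPM. For most genes the 3 points lie close together, whereas Cox7b stands apart in line 3 and Uqcrb in line 1.

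Levels of different genes were compared per kilobase of exon, as RPKM (CPM divided by the exon length in kilobases). In AS, the alpha and beta subunits of the catalytic core stood at the top. Atp5a1, the alpha subunit, had 1837, 1809 and 1707 CPM and 569 ± 22 RPKM (SD, n = 3), and Atp5b, the beta subunit that carries the catalytic sites, had 2167, 2216 and 2233 CPM and 521 ± 8.18 RPKM. Atp5a1 and Atp5b together took 38.4% ± 0.611 of the summed CPM of all members. The order of this pair depended on the length used, since by the transcript with the longest coding sequence Atp5b had 1151 and Atp5a1 722 RPKM. The remaining core subunits followed lower: Atp5c1 (gamma) had 169 ± 1.37 RPKM, Atp5d (delta) 96.8 ± 3.8 and Atp5e (epsilon) 65.7 ± 8.91. Of the peripheral stalk, which holds the core still, Atp5o had 93.0 ± 4.41 RPKM, Atp5f1 49.6 ± 0.849, Atp5h 37.2 ± 0.642 and Atp5j 36.7 ± 1.81. By the transcript with the longest coding sequence, Atp5o had 219, Atp5j 142, Atp5f1 127 and Atp5h 80.0 RPKM, so the order below Atp5o depended on the length. Much of the coding sequence of Atp5h and Atp5f1 is repeated elsewhere, a limit described below. Of Atp5o, 47.9% of the exon length overlaps another gene, and the strand setting of the counting is not given in the sources used here. The AS gene with the lowest level per kilobase among those with 1 CPM in every line was Atp5l, subunit g, with 0.997 ± 0.202 RPKM. Its annotated exons are long, and it had 11.8 RPKM by its main transcript, by which Atp5g1 was lowest with 1.26 RPKM.

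In CII, Sdhd, one of the membrane anchors, had 279, 267 and 257 CPM and the highest level with 217 ± 8.75 RPKM. The other anchor, Sdhc, had the lowest with 28.8 ± 2.54 RPKM. The iron-sulphur subunit Sdhb had 119 ± 4.90 RPKM and the flavoprotein Sdha 110.3 ± 6.54, so this pair differed by about their spread. By main transcript Sdhb led with 233 ± 9.61 RPKM, Sdha had 157 ± 9.30 and Sdhc was again lowest. The likeness of Sdhb and Sdha therefore depended on the length used. In CIII, the small subunit Uqcr10 was highest at 200.4 ± 9.58 RPKM and Uqcrb lowest at 45.4 ± 18.9. By main transcript, Uqcrh was highest with 296 RPKM and Uqcrfs1, the Rieske iron-sulphur protein, lowest with 57.4. In CIV, Cox6a1 was highest with 335 ± 38.4 RPKM, with Cox6b1 within its spread at 313 ± 9.03 RPKM. Cox7c was the lowest CIV gene with 1 CPM in every line, at 5.42 ± 0.704 RPKM. By main transcript Cox4i1 led CIV with 485 RPKM, and Cox7c was again lowest with 11.3.

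CIV is the complex with tissue-specific paralogs, and here 1 paralog carried nearly all counts in most groups. Cox4i2, Cox6b2, Cox7b2, Cox8b and Cox8c had 0 counts in every line, which allows a level of up to 0.118 to 0.152 CPM, or 3 counts of a library (counting error only). Their partners Cox4i1, Cox6b1, Cox7b and Cox8a had 371 ± 2.85, 222 ± 6.39, 195 ± 94.3 and 147 ± 20.5 CPM. Cox6a2, the heart and muscle form, had 58, 8 and 4 counts in lines 1, 2 and 3, or 2.67, 0.405 and 0.157 CPM, so it was above 1 CPM in line 1 alone. Cox6a1 carried 99% to 99.9% of the summed RPKM of Cox6a1 and Cox6a2. Cox7a1, another muscle form, had 43, 32 and 19 counts, or 1.98, 1.62 and 0.746 CPM. Of the summed RPKM of the Cox7a group, Cox7a2 took 84.2% ± 1.92, Cox7a2l, a relative that takes part in supercomplexes, 14.5% ± 1.44, and Cox7a1 1.33% ± 0.579 (SD, n = 3). The part of Cox7a2l is less certain, since much of its coding sequence is repeated elsewhere, as described below. Cox6a2 and Cox7a1 were both highest in line 1 and lowest in line 3.

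Subunit c, the ring of AS that turns as protons pass, is encoded by 3 genes whose mature protein is alike and whose leader peptides differ. Atp5g3 carried 99.1% ± 0.198 of the summed RPKM of the group, with 439, 415 and 455 CPM. Atp5g1 had 7.09, 5.42 and 5.30 CPM and 0.599% ± 0.10 of the RPKM, and Atp5g2 had 1.52, 0.659 and 1.22 CPM and 0.332% ± 0.121. The counts of Atp5g1 and Atp5g2, but not of Atp5g3, are uncertain because of repeated sequence, as described below. The shares of this group are therefore uncertain too, and the SD between lines does not cover this. The genes differ in sequence even where they encode the same mature protein. Over the coding bases of that part, Atp5g1 and Atp5g3 were identical at 80.0% of positions, Atp5g2 and Atp5g3 at 78.7% and Atp5g1 and Atp5g2 at 84.9%. The last 90 coding bases, 5′ to 3′, from the Gencode M21 transcripts, are shown because they hold these differences, with capitals where Atp5g1 or Atp5g2 differs from Atp5g3:
Atp5g1: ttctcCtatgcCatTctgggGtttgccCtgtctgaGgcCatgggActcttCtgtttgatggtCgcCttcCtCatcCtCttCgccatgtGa
Atp5g2: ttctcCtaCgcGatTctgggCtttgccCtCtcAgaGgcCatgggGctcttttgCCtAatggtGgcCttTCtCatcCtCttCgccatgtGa
Atp5g3: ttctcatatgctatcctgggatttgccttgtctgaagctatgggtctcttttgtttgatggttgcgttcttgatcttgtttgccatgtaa
Atp5g1 differed from Atp5g3 at 17 of these 90 bases and Atp5g2 at 23.

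Atp5g1 and Atp5g2 belong to 6 members whose coding sequence is repeated almost whole elsewhere in the genome. Every stretch of 50 bases, the read length in the sample record, of each member's main transcript was looked up, on both strands, among the annotated transcripts of other genes. Of the coding stretches, 99.2% to 100% were found in genes at another locus for Cycs, Cox7c, Atp5l, Atp5g1, Atp5g2 and Usmg5. These 6 had means of 1.13 to 7.37 CPM, or 0.676 to 5.42 RPKM. In another 17 members, 1.04% to 73.2% of coding stretches were found elsewhere, and these had 39.8 to 2205 CPM, or 21.5 to 521 RPKM. In the remaining 22 members with at least 10 counts, no coding stretch was found elsewhere, and their means ran from 1.08 to 1784 CPM, or 1.59 to 569 RPKM. In that last group, the values under 10 CPM were those of Atp5s, the coupling factor B gene, and of the muscle forms Cox6a2 and Cox7a1. The division into these groups was made after the values were seen. Spearman's rho between the share of coding stretches found elsewhere and RPKM was -0.57 across the 42 members above the 1 CPM limit, which are genes and not independent replicates and share library, depth and annotation.

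Most of the matching genes are processed pseudogenes, DNA copies of a messenger RNA. For these 6 members, the matching genes held few counts themselves, except Gm10039. For Cox7c, a small membrane subunit of CIV, pseudogene Gm12338 on chromosome 11 held 100% of the coding stretches and had 3 counts over the 3 lines. For Cycs, whose protein carries electrons from CIII to CIV, Gm10053 on chromosome 19, annotated as protein-coding, held 100% and had 1 count. For Atp5g2 the pseudogenes Gm10175 on chromosome 7 and Gm10231 on chromosome 17 each held 100% and had 9 and 0 counts. For Atp5l, Gm10221 on chromosome 5 held 98.9% and had 0 counts. For Atp5g1, Gm10039 on chromosome 11 held 92.5% and had 101 counts, beside 396 counts of Atp5g1 itself. All pseudogenes that share any stretch of the Atp5g1 transcript, coding or not, together had 110 counts. For Usmg5, a small membrane subunit of AS, Gm14539 on the X chromosome held 97.7% and had 6 counts. How reads with several matches were counted is not given in the sources used here, and the part of these copies in the low levels was not tested. The counts of these 6 genes are therefore given as uncertain. The same limit holds for members with part of their coding stretches elsewhere. The largest such parts were 73.2% for Uqcrb, 66.6% for Atp5h, 61.9% for Cox5b, 53.7% for Cox7a2l, 52.7% for Cox6c and 49.9% for Atp5f1. The pseudogene that shares stretches with Cox7a2l had 230 counts. The coding sequences of 3 short CIV subunits, 5′ to 3′, show the range, with capitals for bases inside a 50-base stretch that is also in a gene elsewhere:
Cox7c: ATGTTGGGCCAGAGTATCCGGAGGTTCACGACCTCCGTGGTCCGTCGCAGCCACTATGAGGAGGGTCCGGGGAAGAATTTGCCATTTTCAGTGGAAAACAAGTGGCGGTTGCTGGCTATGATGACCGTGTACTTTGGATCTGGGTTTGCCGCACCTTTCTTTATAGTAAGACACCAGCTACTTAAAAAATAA
Cox6c: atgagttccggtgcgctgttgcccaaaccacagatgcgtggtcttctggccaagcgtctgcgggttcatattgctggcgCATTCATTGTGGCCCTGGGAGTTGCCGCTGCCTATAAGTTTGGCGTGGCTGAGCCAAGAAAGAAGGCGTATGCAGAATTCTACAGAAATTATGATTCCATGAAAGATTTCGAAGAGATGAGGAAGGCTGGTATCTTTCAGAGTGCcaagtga
Cox8a: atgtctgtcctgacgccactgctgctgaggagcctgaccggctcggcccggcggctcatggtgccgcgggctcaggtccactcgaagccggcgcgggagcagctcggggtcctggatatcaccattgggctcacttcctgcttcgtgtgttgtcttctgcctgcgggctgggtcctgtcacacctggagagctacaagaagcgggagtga
All 192 bases of Cox7c, 145 of 231 bases of Cox6c and none of the 210 bases of Cox8a are in capitals. Cox7c had 5.57, 7.04 and 5.77 CPM in lines 1, 2 and 3, Cox6c 80.3, 71.7 and 78.4 CPM, and Cox8a 124, 153 and 164 CPM. Per kilobase of exon, Cox7c had 5.42 ± 0.704, Cox6c 21.5 ± 1.26 and Cox8a 238 ± 33.2 RPKM (SD, n = 3). By main transcript, Cox7c had 11.3, Cox6c 104 and Cox8a 268 RPKM, so the gap between Cox6c and Cox8a depended on the length used. The SD between lines does not measure how reads with several matches were counted. These 3 genes are examples and not a test.

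**Figure D2:**
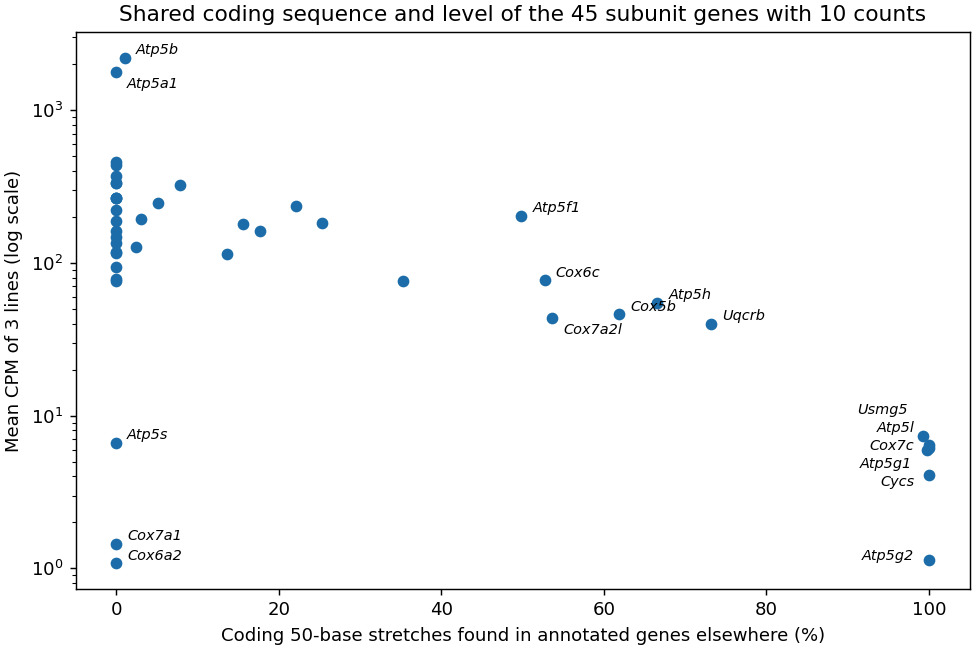
Share of each member's coding 50-base stretches found in annotated genes at another locus (%, horizontal) against its mean CPM over the 3 lines (log scale), for 45 members with at least 10 counts. The 6 members at 99.2% to 100% sit between 1.13 and 7.37 CPM, and the members up to 73.2% sit at 39.8 CPM or more except Atp5s, Cox7a1 and Cox6a2.

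The next question was how far each subunit varied between lines of the same genotype. Of 45 members with at least 10 counts in all, 35 differed between the lines beyond counting noise, by a chi-square test of each gene's 3 counts against the library sizes, adjusted over all genes by Benjamini-Hochberg, beside 66.8% of all genes tested. These were 4 of 4 tested in CII, 6 of 9 in CIII, Cycs, 11 of 13 in CIV and 13 of 18 in AS. The test compares libraries and calls small differences in deeply read genes, so the sizes of the differences matter more. The highest line was at least 1.5 times the lowest for 8 of the 45 members, beside 41.8% of all genes tested. Of the 8, Atp5s, Cycs, Atp5g2, Cox7a1 and Cox6a2 had means under 10 CPM. Among the 36 members with a mean of at least 10 CPM, 28 differed beyond counting noise, beside 81.2% of all genes at that level, and 3 had a 1.5-fold range, beside 19.7%. The 3 were Cox7b, Uqcrb and Atp5j2. The median ratio of highest to lowest line was 1.10 over these 36 members and 1.22 over all genes with such a mean. The SD between lines on the log2(CPM + 1) scale had a median of 0.07 and 0.15 respectively. In these comparisons all genes share only the lower limit with the members and are not matched for level above it. The 36 members had means of 39.8 to 2205 CPM. The part of level and counting noise in the narrower ranges of the members was not tested.

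Several members were nearly level across the lines. Uqcrc1, a core subunit of CIII, had 333, 333 and 331 CPM, Cox4i1, the first nuclear subunit of CIV, had 371, 368 and 374 CPM, and Atp5c1 had 325, 320.0 and 321 CPM. None of these passed the test between libraries, which does not show that they are equal. The widest ranges among the members with at least 10 CPM that lay outside the segments described next were those of Cox8a (124, 153 and 164 CPM, 1.32-fold, lowest in line 1), Atp5e (131, 115 and 100.0 CPM, 1.31-fold, highest in line 1) and Cox5b (40.4, 45.9 and 51.7 CPM, 1.28-fold, highest in line 3). These 3 passed the test between libraries.

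**Figure D3:**
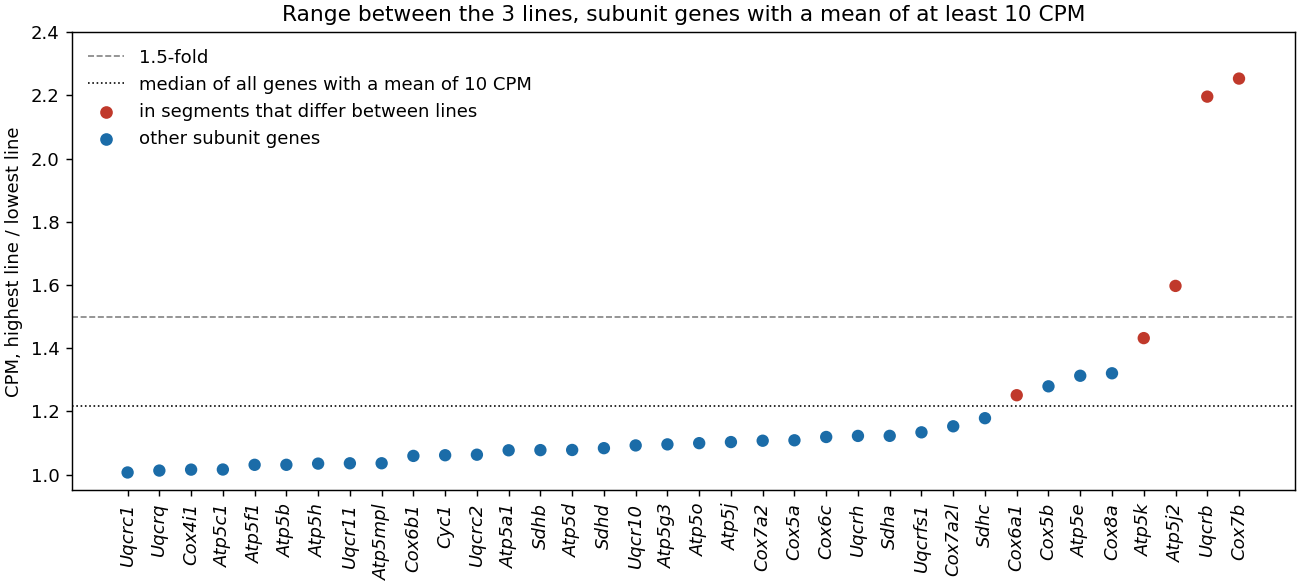
Ratio of the highest to the lowest line in CPM for the 36 members with a mean of at least 10 CPM, in rising order. Red points are the 5 members in chromosome segments that differ between the lines, and 3 of them lie above 1.5-fold, the dashed line. The dotted line marks the median of all genes with a mean of at least 10 CPM (1.22), which are not matched to the members for level above that limit.

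Among members with a mean of at least 10 CPM, the 3 with the widest ranges moved with their chromosome neighbours. Cox7b, Uqcrb, Atp5j2, Atp5k and Cox6a1 were named by the rule that chose the members as lying in chromosome segments that differ between the lines, so their ranges and their likeness to their neighbours follow from that choice and are a description. Each line's log2 deviation from the 3-line mean was computed for a member, and its median for the genes that start within 5 Mb and have a mean of at least 5 CPM, without the member itself. Cox7b (X chromosome, 106015700 to 106022450, mm10), a small CIV subunit, had 135, 146 and 304 CPM, with line 3 far above the others. Its deviations were -0.43, -0.31 and 0.74, and the median of its 36 neighbours was -0.36, -0.23 and 0.59. Uqcrb (chromosome 13, 66900617 to 66905378), which helps to bind ubiquinone in CIII, had 58.4, 34.4 and 26.6 CPM, highest in line 1. Its deviations were 0.62, -0.13 and -0.49, beside 0.57, -0.06 and -0.52 for 46 neighbours. Uqcrb has 73.2% of its coding stretches elsewhere, so its counts are uncertain.

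The other 3 lie on chromosome 5 and all were highest in line 1 and lowest in line 3. Line 1 was raised by a similar amount around other genes of the chromosome, with a median neighbour deviation of 0.22 around Cdk6, 0.23 around Cox7b2, 0.26 around Cox18 and 0.25 around Cox19. In lines 2 and 3 the values were -0.15 and -0.13 around Cox18, and -0.04 and -0.18 around Cox19. The windows of Atp5k and Cox6a1 overlap, as do those of Cox19 and Atp5j2. Whether Atp5j2, Atp5k and Cox6a1 lie in 1 segment or more was not tested. Atp5j2 (145183698 to 145192062), subunit f of AS, had 229, 165 and 144 CPM, a 1.60-fold range. Its deviations ran from 0.38 to -0.29 and those of 71 neighbours from 0.26 to -0.18. Atp5k (108433244 to 108434448), subunit e, had 153, 123 and 107 CPM, a 1.43-fold range, with deviations from 0.28 to -0.24 beside 0.27 to -0.20 for 57 neighbours. Cox6a1 (115345642 to 115348981) had 265, 229.8 and 212 CPM, with deviations from 0.17 to -0.15 beside 0.28 to -0.19 for 64 neighbours. Cdk6 was also highest in line 1 and lowest in line 3, with deviations of 0.44, 0.02 and -0.46 beside 0.22, -0.01 and -0.27 for its 11 neighbours. All 5 passed the test between libraries. The neighbours' own range between lines was 0.44 to 1.09 on the log2 scale for the 5.

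A further member lay among neighbours that differed between the lines, by 0.77 on the log2 scale. Atp5s (chromosome 12, 69724950 to 69744660) had 7.79, 7.09 and 5.03 CPM, or 169, 140 and 128 counts. Its deviations were 0.22, 0.10 and -0.32, beside 0.22, 0.26 and -0.50 for 40 neighbours, so both were lowest in line 3. As a description that the choice of these genes fixes, for the 5 genes of the rule the median SD between lines was 0.34 on the log2 scale, and 0.08 after the neighbours' deviation was subtracted. For the other 37 members above the 1 CPM limit it was 0.07 before and 0.08 after the subtraction. Of the 31 others with a mean of at least 10 CPM, 0 had a 1.5-fold range and their widest was 1.32-fold. Their neighbours differed by at most 0.27 on the log2 scale, a value reached around Sdha. Cox6a2, Cox7a1 and Atp5g2, whose ranges were wider than that of Cox7b at means under 10 CPM, had neighbours that differed by 0.05 to 0.08 on the log2 scale. DNA copy number was not measured in these files and its part in the segments was not tested.

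**Figure D4:**
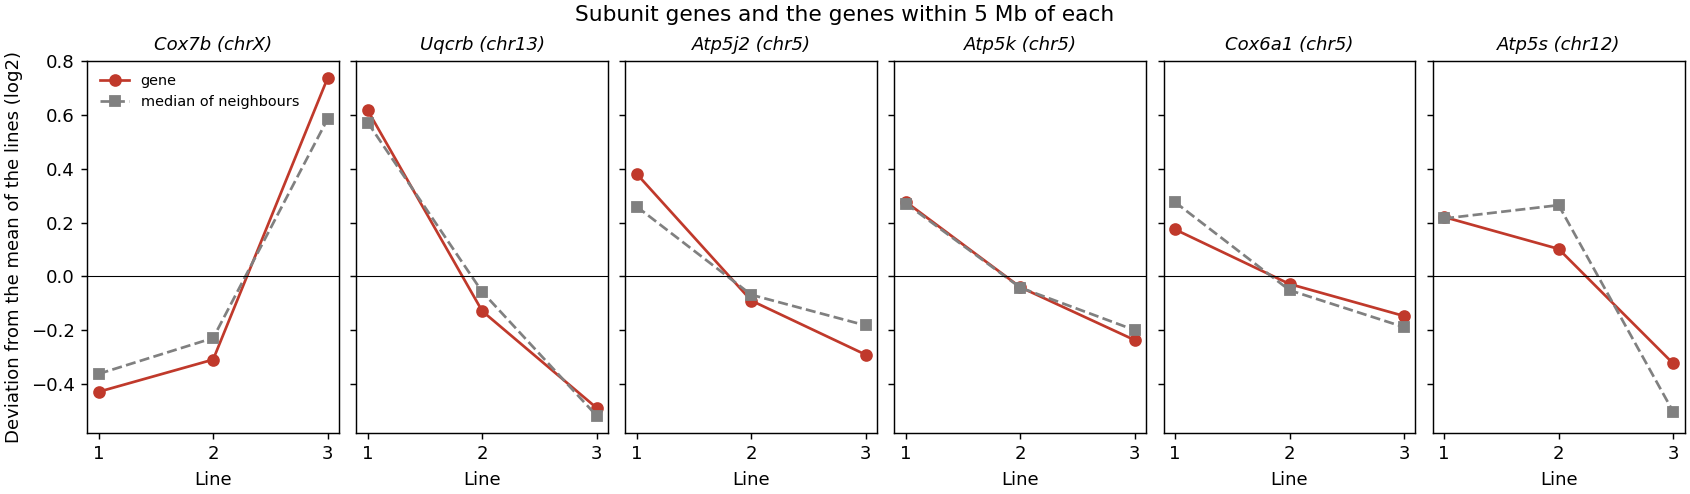
Log2 deviation of Cox7b, Uqcrb, Atp5j2, Atp5k, Cox6a1 and Atp5s from the mean of the 3 lines (red circles) and the median deviation of genes within 5 Mb of each (grey squares), by line. In each panel gene and neighbours lie on the same side of 0 in line 1 and in line 3, with the rise in line 3 for Cox7b and the fall there for the other 5.

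The summed level of CIV rested in part on Cox7b. The CIV genes summed to 1691, 1680.5 and 1890.0 CPM in lines 1, 2 and 3, with line 3 above both others and a coefficient of variation of 6.73%. Cox7b made up 7.97%, 8.71% and 16.1% of that sum. Without Cox7b the sums were 1556, 1534 and 1586 CPM, with a coefficient of variation of 1.69%. CII summed to 1132, 1088 and 1027 CPM (1082 ± 52.6, SD, n = 3), highest in line 1, and CIII to 1562, 1497 and 1554 CPM (1538 ± 35.1), lowest in line 2. AS summed to 6131, 6028 and 5892 CPM (6017 ± 120.2), or 2127, 2003 and 1952 CPM without Atp5a1 and Atp5b. Both AS sums include the chromosome 5 genes Atp5j2 (229, 165 and 144 CPM) and Atp5k (153, 123 and 107 CPM), and no sum without them was made. In AS, 11 of 17 members with 1 CPM in every line were highest in line 1. Among them were Atp5j2, Atp5k and Atp5s, whose neighbours also differed between the lines. In CIV, 7 of 11 were highest in line 3, Cox7b among them, while in CII 3 of 4 were highest in line 1. Among these CII genes was Sdha (chromosome 13), whose 28 neighbours had median deviations of 0.15, -0.05 and -0.11 in lines 1, 2 and 3. Over all 8528 genes with a mean of at least 10 CPM, 2531 were highest in line 1, 2788 in line 2 and 3209 in line 3. That limit is not the one used for the members, so the shares are not strictly alike. Median deviations of a complex in a line stayed within -0.08 and 0.07 on the log2 scale in CII, CIII, CIV and AS.

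**Figure D5:**
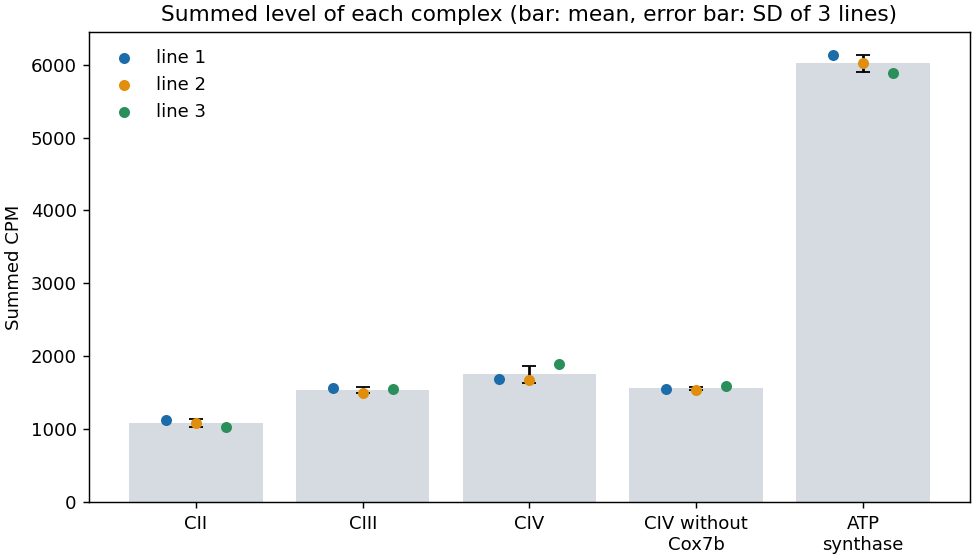
Summed CPM of the CII, CIII, CIV and AS genes, and of CIV without Cox7b. Bars are means and error bars SDs of 3 lines, points are single lines, and the point of line 3 above the CIV bar (1890.0 CPM) comes back to the others without Cox7b (1586 CPM); the sums are not corrected for gene length or number, so bars of different complexes are not levels per subunit.

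Assembly and accessory factors, which insert cofactors or put the subunits together, were read from a list of 39 genes for CII, CIII, CIV and AS. With at least 10 counts, 38 were tested, and 26 of them differed between the libraries, beside 66.8% of all genes tested, a share close to theirs. A range of at least 1.5-fold was seen for 5, beside 41.8%. Higd2a, a small inner membrane protein linked to CIV, had 16.9, 38.7 and 19.3 CPM, highest in line 2, and its neighbours on chromosome 13 had a range of 0.71 on the log2 scale. Cmc2, a CIV assembly factor, had 18.5, 17.9 and 11.2 CPM, lowest in line 3. Lyrm7, which serves the Rieske protein of CIII, had 7.74, 5.93 and 3.97 CPM. Sdhaf4, which acts on the flavoprotein of CII, had 10.1, 6.33 and 10.3 CPM, lowest in line 2. Sco2, which delivers copper to CIV, had 6.17, 3.95 and 3.97 CPM, highest in line 1, and 91.8% of its exon length overlaps another gene. Pet117 had 0 counts in every line, and its whole exon length overlaps another gene. Among factors with a mean of at least 10 CPM, 2 of 29 reached 1.5-fold (Higd2a and Cmc2), beside 19.7% of all genes with such a mean, again not matched for level. Atpif1, the inhibitor that blocks AS from running in reverse, had 66.8, 78.7 and 96.9 CPM, highest in line 3.

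The promoters of the members were searched for letters bound by 2 kinds of factor known for nuclear genes of respiration. NRF-1 binds a palindrome of which GCGCANGC was searched here, and ETS factors such as GABP bind CCGGAAGT. Both were searched on both strands from 250 bases before to 50 after the start site in the RefSeq table (GRCm38.p6), which held 38 of the 50 members. Those it did not hold included Atp5a1, Atp5mpl, Sdhc, Cyc1, Uqcrb, Uqcrc2, Uqcrq, Cox4i1 and Cox6c, so the shares per complex leave these subunits out. The NRF-1 letters were in 16 of 38 promoters (42.1%), beside 14.8% of 17491 protein-coding genes. Among members above the 1 CPM limit they were in 15 of 33 (45.5%), beside 25.0% of the 7882 protein-coding genes above it. The ETS letters were in 4 of 38 (10.5%), beside 5.69% of all protein-coding genes, and in 4 of 33 (12.1%) above the limit, beside 10.7%. By complex, the NRF-1 letters were in 3 of 3 promoters of CII, 2 of 5 of CIII, that of Cycs, 1 of 13 of CIV and 9 of 16 of AS. Among members above that limit it was 1 of 9 in CIV and 8 of 15 in AS. In the assembly factors it was 10 of 35. One promoter of each complex with these letters is shown, with 24 bases before the match, 5′ to 3′ in the direction of the gene and with the matched letters in capitals:
Sdhd: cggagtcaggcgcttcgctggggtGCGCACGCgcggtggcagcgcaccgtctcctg
Uqcr11: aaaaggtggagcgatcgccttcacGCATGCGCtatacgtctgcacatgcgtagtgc
Cycs: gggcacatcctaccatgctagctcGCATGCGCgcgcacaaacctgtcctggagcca
Cox6a1: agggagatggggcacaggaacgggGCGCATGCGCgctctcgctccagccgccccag
Atp5k: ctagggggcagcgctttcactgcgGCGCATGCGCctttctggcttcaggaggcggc
All 5 genes lie on the minus strand. The stretches are chr9:50603897-50603952 for Sdhd, chr10:80406794-80406849 for Uqcr11, chr6:50566598-50566653 for Cycs, chr5:115349089-115349144 for Cox6a1 and chr5:108434418-108434473 for Atp5k. Those of Cox6a1 and Atp5k match on both strands with overlap. The letters are a description of sequence, and no binding was measured in these files. Cox6a1 was the only one of 13 CIV genes with the NRF-1 letters in this window.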

How the data were processed

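RNA-seq of 3 Cdk6KM/KM cell lines was analysed. The authors trimmed reads, aligned them to mm10 with STAR, used featureCounts on Gencode M13 exons and deposited the raw counts. The paper names the TruSeq kit and the sample record SENSE mRNA-Seq, read from 1 end for 50 bases. Another 6 columns of the table belong to samples not used here. Libraries had 21569845, 19633463 and 25773221 counts.

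Counts were scaled with TMM in edgeR 4.0.16 (R 4.3.3) to CPM, with log2(CPM + 1) for spreads. RPKM used all annotated exons of Gencode M21, in which 50462 of 50686 genes matched, and the transcript with the longest coding sequence as alternative. The other genes held 0.00961% of counts. Genes with at least 10 counts in all (13974) were tested by chi-square between libraries with Benjamini-Hochberg adjustment at 0.05. This compares libraries, not conditions. Of the statistics, only the chi-square test was tried on simulated data. Those data held the counting noise that the test assumes, so they do not show how it behaves with other spread. Python 3.11.15, pandas 2.3.3, numpy 2.4.6 and scipy 1.17.1 were used.

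Members, gene lists and tests were chosen with earlier results of these data known. Named genes are the highest and lowest per kilobase in each complex, members under 1 CPM in a line, those with a 1.5-fold range, the 5 genes in the segments, paralogs and assembly factors with a 1.5-fold range. Others were named after their values were seen. The alternatives tried were size factors of DESeq2 1.42.0, plain library sizes, other count filters, a pseudocount of 0.1, a 2 Mb window, totals without mitochondrial genes and leaving out each line.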

Additional observations from a re-analysis of the deposited data

How the results depend on the processing

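No paired analysis was possible because the 3 lines form 1 group. Leaving out each line in turn, the members that differed between libraries numbered 21 to 28 (35 with all lines; 21 without line 3, with 47.1% of all genes called), those with a 1.5-fold range 3 to 7 (8 with all lines; 4 without line 1 and 3 without line 3), and fewer libraries leave less to differ. Without line 3, the range of Cox7b was 1.08-fold, and without line 1 that of Uqcrb was 1.29-fold. That of Atp5j2 was 1.15-fold without line 1 and 1.39-fold without line 3. Among the members under 10 CPM, the range of Atp5g2 was 1.26-fold without line 2, that of Cox7a1 1.23-fold without line 3, that of Cox6a2 2.58-fold without line 1 and 6.61-fold without line 3, that of Atp5s 1.41-fold without line 1 and 1.10-fold without line 3, and that of Cycs 1.17-fold and 1.34-fold. The median RPKM of members with 1 CPM in every line was 94.9 by all exons and 173 by the main transcript, by which Atp5g3 took 99.5% and Atp5g1 0.208% of the subunit c group. Those subunit c shares stay uncertain by either length, since the counts of Atp5g1 and Atp5g2 are. Without Cox7b, chosen after its values were seen, CIV summed to 1559 CPM. In 78 other recomputed values that answer a comparison, the change stayed within the spread of the lines or within 1.5 times for counts. With 3 lines of 1 genotype, no effect of the genotype can be given.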
